A study of Mus musculus with 44 samples.

Results

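The 10 genes described here, Lefty1, Cer1, Dkk1, Hhex, Otx2, Lhx1, Nodal, Lefty2, Gsc and Eomes, are genes known from the anterior visceral endoderm and from the signals around it in the early mouse embryo. They were chosen by symbol from 32287 gene identifiers, and each symbol had 1 identifier. Their level is given as TPM, a share of all transcripts in a library that is corrected for transcript length, in 44 low-input RNA-seq libraries from 12 groups. The study asked how gut endoderm of extraembryonic origin compares with gut endoderm of embryonic origin, and the E6.5 tissues are the starting populations of both.

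Embryos were made by aggregating GFP+ embryonic stem cells (G4 in the labels, the F1G4 line of the study's methods) with mCherry+ morulae labelled CD1/G4, so that cells of the embryo proper express EGFP and cells of the extraembryonic lineage express mCherry. The stem cells came from a single clone with EGFP driven by a CAG promoter at Rosa26, and mCherry was driven by an EF1a promoter from a piggyBac insertion in F1G4 cells, in a mouse colony kept by crossing mCherry+ males with C57BL/6J females. Origin and strain background therefore change together in each comparison between an mCherry+ group and a GFP+ group. Sex can differ too, because the study's methods give the GFP+ cells as male and the mCherry+ cells as of either sex. All E6.5 and E9.5 groups were wild type (WT). At E6.5, tissues of single embryos were separated by hand with a glass capillary into Epi (epiblast, GFP+), exEndo 1 (distal extraembryonic endoderm, over the epiblast, which holds the anterior visceral endoderm together with the rest of the endoderm of that region) and exEndo 2 (proximal extraembryonic endoderm, over the extraembryonic part). At E9.5, cells were sorted by flow cytometry from pools of 4 embryos: mCherry+ EPCAM+ cells of the midgut and hindgut (exMidgut and exHindgut, together exGut), GFP+ EPCAM+ cells with a low mCherry signal from the same regions (emMidgut and emHindgut, together emGut) and mCherry+ yolk sac endoderm (YsEndo). Each E6.5 and E9.5 group had 4 libraries. At E13.5, EPCAM+ cells of single embryos were sorted from the small intestine (exSI, emSI) and colon (exColon, emColon), with 3 libraries per group. The mCherry+ cells at E13.5 were Trp53 KO and the GFP+ cells WT. Origin, strain, Trp53 genotype and any difference in sex therefore cannot be told apart at this stage. The labels do not say which libraries share an embryo or a pool, and p-values measure only the spread between these libraries.

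The anterior visceral endoderm is a group of cells that forms at the distal tip of the embryo and moves to the future anterior side. There it secretes inhibitors that keep Nodal and Wnt signals away from the adjacent epiblast, which protects the region that will form the head. Nodal, made by the epiblast, is needed to induce these cells, and in turn Cer1 and Lefty1 block Nodal while Dkk1 blocks Wnt. Hhex, Otx2, Lhx1, Gsc and Eomes encode transcription factors of these cells, most of which are used again in the primitive streak or its derivatives.

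Upstream sequences are given for Cer1, Nodal and Eomes, an inhibitor, its ligand and a T-box factor of this endoderm. These are 3 of the 6 genes found higher in distal than in proximal endoderm, and sequences of the others are not printed. Each line holds the 250 bases before the annotated start in RefSeq (GRCm38.p6), written 5′ to 3′ on the strand of the gene, at chr4:82885152-82885401 (minus strand) for Cer1, chr10:61417722-61417971 (plus strand) for Nodal and chr9:118477939-118478188 (plus strand) for Eomes. Capitals mark a match to a searched motif.
Cer1: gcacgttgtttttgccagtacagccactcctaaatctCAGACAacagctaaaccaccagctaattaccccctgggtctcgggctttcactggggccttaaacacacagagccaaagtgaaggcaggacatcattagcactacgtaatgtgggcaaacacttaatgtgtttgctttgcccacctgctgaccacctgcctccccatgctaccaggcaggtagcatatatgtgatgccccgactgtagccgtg
Nodal: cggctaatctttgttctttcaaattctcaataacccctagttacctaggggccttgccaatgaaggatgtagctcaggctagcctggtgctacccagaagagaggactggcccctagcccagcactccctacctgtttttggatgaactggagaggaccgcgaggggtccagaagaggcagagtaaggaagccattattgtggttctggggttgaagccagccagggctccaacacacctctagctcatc
Eomes: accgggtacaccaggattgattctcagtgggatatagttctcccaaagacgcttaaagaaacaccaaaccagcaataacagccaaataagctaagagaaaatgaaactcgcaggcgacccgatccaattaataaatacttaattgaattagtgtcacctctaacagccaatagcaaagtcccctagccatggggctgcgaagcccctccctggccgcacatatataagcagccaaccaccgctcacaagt
Promoter windows were found for 8 of the 10 genes, 11 windows in all, and 4 short motifs were searched on both strands. CAGACA, a letter string bound by Smad proteins, was in 16.9% of 32619 promoter windows of the same length and in 1 of the 11, that of Cer1, where it begins 213 bases before the start. TGTNNATT, bound by FoxH1, was in 10.9% of all windows and in 2 overlapping windows of Otx2. TAATCC, bound by homeodomains of the Otx2 and Gsc type, was in 6.22% of all windows and in 1 window of Otx2. The Gata motif AGATAA was in 10.0% of all windows and in 2 windows of Otx2, in 1 of which it overlaps the homeodomain motif. These are letter matches and say nothing of binding.

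The tissue labels of the 3 E6.5 groups were checked against reporters and markers. For Epi the label of the tissue is epiblast, while its protocol text names EmVE tissue, and the values below are those of epiblast. mCherry was 1764 to 5231 TPM in exEndo 1, 1731 to 4938 TPM in exEndo 2 and at most 0.822 TPM in Epi, while EGFP was 180 to 532 TPM in Epi, 0.0664 to 15.9 TPM in exEndo 1 and 0 to 3.59 TPM in exEndo 2. Ttr, a transport protein made by visceral endoderm, was 1997 to 2822 TPM in exEndo 1, 957 to 2036 TPM in exEndo 2 and listed at 0 in every Epi library. Pou5f1, the pluripotency factor of the epiblast, was 1067 to 1852 TPM in Epi and at most 21.7 TPM in the endoderm libraries. In all libraries, 10382 to 13596 genes lay above 1 TPM. In the genes described here, 2 libraries stand apart, exEndo 1 replicate 3 and Epi replicate 1, and their values are given before the comparisons. They were set apart by values of these same genes, so a call gained by leaving either out supports nothing by itself.

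In exEndo 1 replicate 3, all 10 genes were lower than in the other 3 exEndo 1 libraries. Lefty1 was listed at 0 there against 53.5, 48.1 and 18.9 TPM in replicates 1, 2 and 4, and Otx2 reached 3.25% of the mean of those 3. Lefty2 stood at 1.08%, Cer1 at 5.69%, Gsc at 9.18%, Lhx1 at 22.6%, Hhex at 23.1% and Nodal at 33.8% of that mean. The least reduced were Eomes at 50.6% and Dkk1, the Wnt inhibitor, at 63.0%. Among 10893 genes above 1 TPM in the other 3 libraries, 20.4% were lower in replicate 3 than in each of them. Of the 8 other anterior visceral endoderm genes listed (Hesx1, Sfrp1, Sfrp5, Foxa2, Amot, Fgf8, Fzd5 and Fzd8), 6 were lower too, with Sfrp1 at 21.2 TPM against 186, 77.5 and 87.5 TPM. The 12 visceral endoderm markers did not follow: 1 of 12 was lower, their median difference was 0.43 on the log2(TPM + 1) scale against 0.07 over all genes, and their summed level in replicate 3, 18397 TPM, was the highest of the 4. Among further lists, 6 of 14 Nodal pathway and 4 of 7 gut endoderm genes were lower. So were 3 of 6 epiblast and 3 of 4 notochord and node genes. In contrast, 2 of 6 Wnt3 and Dkk receptor, 1 of 7 parietal endoderm and 1 of 4 streak genes were lower. The summed level of the 10 genes in exEndo 1 was 977.2, 652.7, 147.5 and 651.0 TPM in replicates 1 to 4. EGFP (0.0664 TPM) and Pou5f1 (2.28 TPM) were lowest in this library as well, and the part of epiblast RNA in its values was not tested. In bulk tissue, fewer cells of a type and less RNA per cell cannot be told apart.

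**Figure D1:**
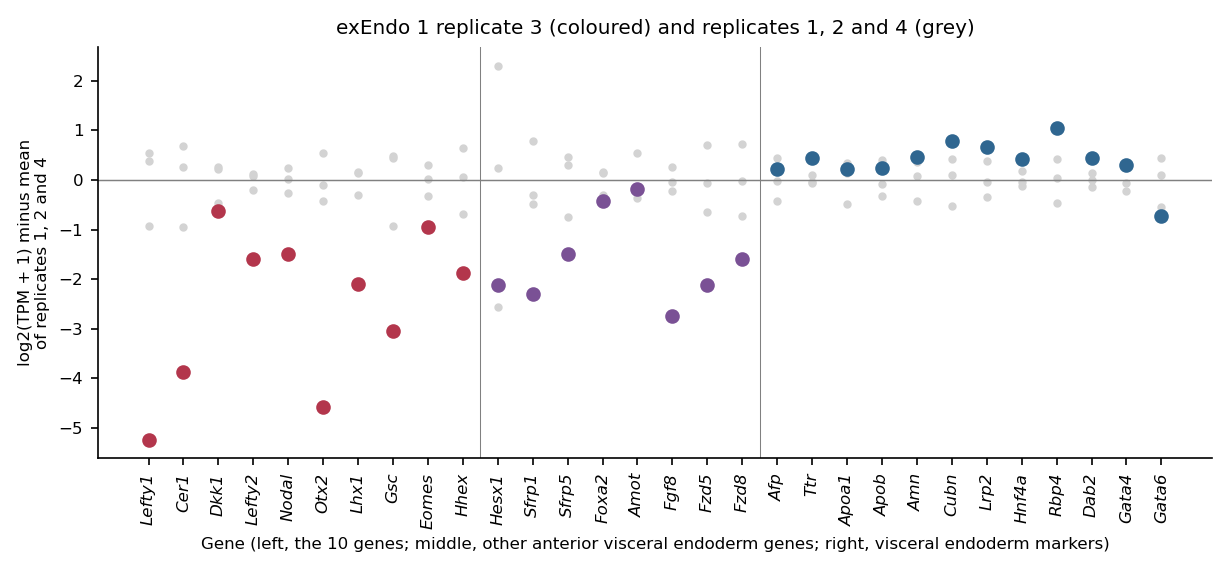
Difference in log2(TPM + 1) of each exEndo 1 library from the mean of replicates 1, 2 and 4, for the 10 genes, the other anterior visceral endoderm genes and the visceral endoderm markers, with replicate 3 coloured and the other replicates grey. Replicate 3 lies below the other libraries for all 10 genes and for 6 of 8 other anterior visceral endoderm genes, but for 1 of 12 visceral endoderm markers.

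In Epi replicate 1, 7 of the 10 genes were lower than in the other Epi libraries, against 28.5% of 11160 genes. Lhx1 was 0.122 TPM there against 37.1, 48.9 and 41.3 TPM in replicates 2, 3 and 4, and Gsc was 1.098 TPM against 33.8, 41.9 and 32.8 TPM. All 6 primitive streak and nascent mesoderm markers (T, Mixl1, Mesp1, Mesp2, Evx1, Lef1) were lower as well, and their summed level was 73.8 TPM against 312.9, 339.5 and 444.1 TPM. Epiblast markers did not follow, since 1 of 8 was lower. The 3 genes of the 10 that were not lower in this library were Lefty1, Otx2 and Nodal, with 13.7, 331 and 28.4 TPM. The part of streak cells in these values was not tested.

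**Figure D2:**
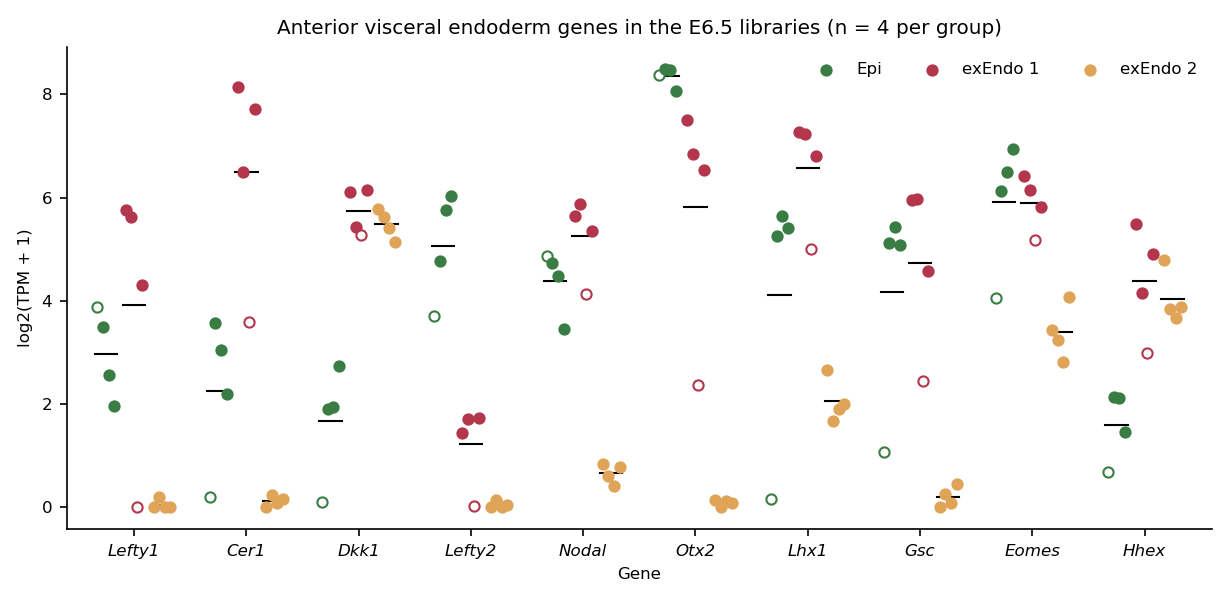
Levels of the 10 genes in the 12 E6.5 libraries as log2(TPM + 1), with 1 point per library, black bars for group means and open circles for exEndo 1 replicate 3 and Epi replicate 1. Lefty1, Cer1, Otx2, Nodal, Lefty2 and Gsc were at or below 1 TPM in all 4 exEndo 2 libraries, whereas Dkk1 and Hhex were above 10 TPM there.

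Distal and proximal endoderm were compared first, since the anterior visceral endoderm lies in the distal tissue. The test was that of limma on log2(TPM + 1), taken on both sides, with Benjamini-Hochberg adjustment over the genes tested in a comparison. The call needed an adjusted p under 0.05 and a log2 difference of more than 1 in either direction, and fold changes on this scale understate those of genes with low TPM. Between exEndo 1 and exEndo 2, 6.68% of 11414 genes were called, 4.11% as higher in exEndo 1. Of the 10 genes, 8 passed the filter on low values and 6 were called higher in exEndo 1. Of these, Cer1, Otx2, Nodal and Gsc passed the filter only through exEndo 1, so they had to differ and their count supports nothing by itself. Lhx1, Eomes, Dkk1 and Hhex were above 1 TPM in all 8 libraries, and 2 of these 4 were called.

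Cer1, a secreted inhibitor of Nodal and BMP ligands, was 283, 89.8, 11.0 and 209 TPM in exEndo 1 replicates 1 to 4 and at most 0.173 TPM in exEndo 2. Its log2 difference was 6.37 ± 0.82 (SE, n = 4 per group, limma adjusted p = 9.54e-05). The lowest exEndo 1 library was still far above the highest exEndo 2 library, and the difference ranged from 5.82 to 7.34 when single libraries were left out. Lefty1, a secreted Nodal inhibitor, was 53.5, 48.1, 0 and 18.9 TPM in exEndo 1 and 0, 0.143, 0 and 0 TPM in exEndo 2. Because replicate 3 was listed at 0, Lefty1 did not pass the filter. Without the filter its log2 difference was 3.88 ± 1.02 (limma adjusted p = 0.0409). Lefty2, its close paralogue, was 1.69, 2.27, 0.0227 and 2.33 TPM in exEndo 1 and at most 0.0974 TPM in exEndo 2, and without the filter it was not called (log2 difference 1.18 ± 0.49, limma adjusted p = 0.201). Lefty1 and Lefty2 are so alike in sequence that the split of reads between them is uncertain.

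Nodal, the TGF-beta family ligand that these inhibitors block, was 48.8, 57.5, 16.5 and 40.1 TPM in exEndo 1 and 0.782, 0.525, 0.334 and 0.718 TPM in exEndo 2. The log2 difference was 4.59 ± 0.35 (limma adjusted p = 6.64e-07), which was the smallest error among the 6 called genes. It stayed between 4.38 and 4.96 when single libraries were left out.

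Otx2, a homeodomain factor needed for head formation, was 179, 114, 4.18 and 91.9 TPM in exEndo 1 and at most 0.103 TPM in exEndo 2, a log2 difference of 5.73 ± 0.75 (limma adjusted p = 0.000113). Gsc, a homeodomain factor of the anterior endoderm and the streak, was 60.6, 62.1, 4.46 and 22.9 TPM in exEndo 1 and at most 0.362 TPM in exEndo 2, a log2 difference of 4.54 ± 0.86 (limma adjusted p = 0.0021). For both genes the level in replicate 3 was above every exEndo 2 library and more than 1 log2 unit below the other exEndo 1 libraries. Lhx1, a LIM homeodomain factor, was 153, 150, 31.1 and 111 TPM in exEndo 1 and 5.33, 2.18, 2.76 and 3.02 TPM in exEndo 2. Its log2 difference was 4.52 ± 0.92 (limma adjusted p = 0.00376), and the groups did not overlap. Eomes, a T-box factor of visceral endoderm, streak and extraembryonic ectoderm, was 84.8, 69.9, 35.4 and 55.2 TPM in exEndo 1 and 9.81, 8.44, 6.05 and 15.9 TPM in exEndo 2. Its log2 difference was 2.50 ± 0.48 (limma adjusted p = 0.00244), again without overlap. The highest Eomes value of exEndo 2, in replicate 4, stood beside the only EGFP signal of the group (3.59 TPM) and its highest summed level of streak markers (19.1 TPM against 2.96 to 5.52 TPM), and their part in that value was not tested.

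Dkk1 and Hhex were present in both tissues and were not called. Dkk1, the secreted Wnt inhibitor, was 68.4, 42.1, 37.9 and 70.1 TPM in exEndo 1 and 53.6, 48.6, 41.3 and 34.5 TPM in exEndo 2. Its log2 difference was 0.26 ± 0.41 with a 95% interval of -0.615 to 1.13 (limma adjusted p = 0.732). Hhex, a homeodomain factor of the first distal endoderm cells, was 43.7, 16.7, 6.88 and 28.9 TPM in exEndo 1 and 26.6, 13.3, 11.7 and 13.6 TPM in exEndo 2. Its log2 difference was 0.34 ± 0.46 with a 95% interval of -0.637 to 1.31 (limma adjusted p = 0.682), and leaving out exEndo 1 replicate 1 turned it to -0.032. Both intervals include a difference of 1 log2 unit in favour of exEndo 1.

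Other genes of the same endoderm and of the Nodal pathway gave the following counts. Of the 8 other anterior visceral endoderm genes, 7 were tested and 5 were higher in exEndo 1, with a list median of 2.04 against 0.02 over all genes tested. Sfrp1 and Sfrp5, secreted Wnt inhibitors, rose by 5.73 and 2.77 on the log2 scale (limma adjusted p = 8.24e-07 and 0.000118), and Fgf8, a growth factor, by 5.40 (limma adjusted p = 2.7e-05). Fzd5, a Wnt receptor, rose by 2.04 (limma adjusted p = 0.0035). Hesx1, a homeodomain repressor of the anterior endoderm, was not called, at 86.6, 2.03, 3.07 and 20.1 TPM in exEndo 1 and 25.8, 36.1, 14.1 and 13.8 TPM in exEndo 2. Of 18 Nodal pathway components, 13 were tested, 1 was higher and none lower, and the list median was 0.33. The called component was Foxh1, the DNA-binding partner of Smad2 and Smad3, at 54.3 ± 10.8 TPM in exEndo 1 and 18.4 ± 7.29 TPM in exEndo 2 (SD, n = 4). Of Wnt3 and 6 Dkk receptor and Wnt response genes, 6 were tested and Wnt3 was called, at 33.3 ± 11.7 TPM in exEndo 1 and 4.65 ± 4.46 TPM in exEndo 2. Of 12 visceral endoderm markers, 3 were higher and 1 was lower in exEndo 1, with a list median of 0.06. Of 8 parietal endoderm markers, 7 were tested and 5 were lower in exEndo 1, with a list median of -1.70. Their summed level was 404.5 to 523.2 TPM in exEndo 1 and 1117 to 1764 TPM in exEndo 2. That of 6 mesenchyme markers was 8.69 to 15.7 TPM in exEndo 1 and 45.6 to 88.8 TPM in exEndo 2. The part of such cells in the exEndo 2 values was not tested. Sfrp1 and Fgf8 had at most 1.04 TPM in exEndo 2 and passed the filter through exEndo 1.

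Markers of the neighbouring epiblast were also higher in the distal tissue. Of 8 epiblast markers, 6 were tested and 3 were higher in exEndo 1, with a median of 1.08, and their summed level was 421 to 559.1 TPM in exEndo 1 and 226.4 to 296.8 TPM in exEndo 2 against 2805 to 4484 TPM in Epi. Of the 6 streak markers, 4 were tested and 2 were higher, with summed levels of 67.5 to 233.8 TPM in exEndo 1 and 2.96 to 19.1 TPM in exEndo 2. Pou5f1, the defining epiblast marker, was 9.29, 21.7, 2.28 and 17.4 TPM in exEndo 1 and 0 to 4.51 TPM in exEndo 2. The part of these cells in the distal levels of the 10 genes was not tested.

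**Figure D3:**
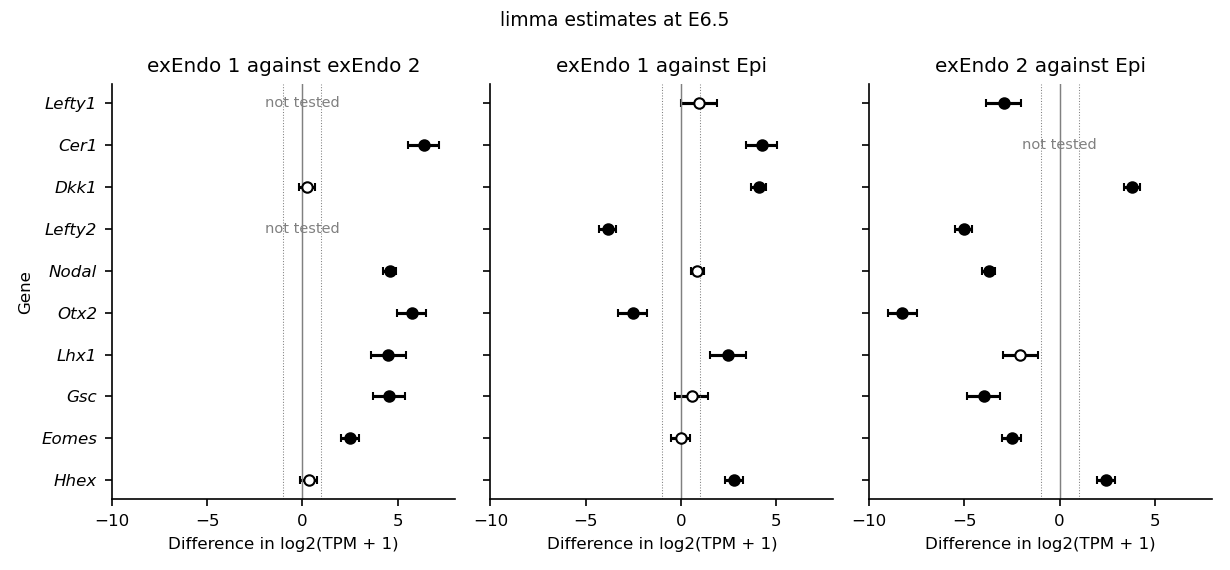
limma differences in log2(TPM + 1) of the 10 genes in the 3 comparisons among E6.5 tissues, with bars for the SE, filled points for called genes and dotted lines at a difference of 1. Dkk1 and Hhex lie near 0 between exEndo 1 and exEndo 2 and above 2 in both comparisons with Epi.

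In the comparison of exEndo 1 with the epiblast beneath it, all 10 genes were tested, and each was above 1 TPM in at least 3 of the 4 libraries of both groups. Of all 12057 genes tested, 4023 (33.4%) were called, 2390 (19.8%) as higher in exEndo 1 and the rest as lower. Of the 10 genes, 6 were called, Cer1, Dkk1, Hhex and Lhx1 as higher and Otx2 and Lefty2 as lower in exEndo 1. The median of the 10 was 0.91 against 0.09 over all genes.

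The secreted inhibitors Cer1 and Dkk1 had the largest excess in the endoderm. Cer1 was 0.153, 10.9, 7.31 and 3.56 TPM in Epi replicates 1 to 4, a log2 difference of 4.23 ± 0.83 (limma adjusted p = 0.000399). Its groups came close, since exEndo 1 replicate 3 at 11.0 TPM lay just above Epi replicate 2. Dkk1 was 0.0757, 2.75, 2.84 and 5.69 TPM in Epi, a log2 difference of 4.07 ± 0.41 (limma adjusted p = 6.88e-07) with no overlap. Hhex was 0.608, 3.39, 3.33 and 1.74 TPM in Epi, a log2 difference of 2.78 ± 0.46 (limma adjusted p = 9.42e-05), also with no overlap. Against the mean level in exEndo 1, Epi held at most 0.0228% of mCherry and none of Ttr, whereas it held 0.139 to 10.4% of Dkk1, 2.53 to 14.1% of Hhex, 0.103 to 7.36% of Cer1 and 9.62 to 45.5% of Lefty1.

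Lefty1 was 13.7, 10.2, 4.90 and 2.90 TPM in Epi and overlapped exEndo 1 only through replicate 3 of the latter. Over all libraries its log2 difference was 0.95 ± 0.92 (limma adjusted p = 0.382). Without exEndo 1 replicate 3 it was 2.26 and called (limma adjusted p = 0.000358), and without both libraries that stand apart it was 2.56. Replicate 3 was set apart by low values of these genes, Lefty1 among them, so that call follows from the choice. Over all 13 alternatives the adjusted p of Lefty1 ranged from 0.000135 to 0.873. Lefty2 went the other way, at 12.1, 26.3, 53.1 and 64.1 TPM in Epi, a log2 difference of -3.84 ± 0.45 (limma adjusted p = 3.01e-06). Within libraries, Lefty1 was the higher of the 2 paralogues in 3 of 4 exEndo 1 libraries and Lefty2 in 3 of 4 Epi libraries.

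Nodal was 28.4, 25.5, 21.2 and 9.99 TPM in Epi, a log2 difference of 0.87 ± 0.35 (limma adjusted p = 0.043), under the threshold of 1. It was called without exEndo 1 replicate 3 (1.24, limma adjusted p = 0.00197) and without Epi replicate 1 (1.03, limma adjusted p = 0.0303), and over 13 alternatives its adjusted p ranged from 0.00126 to 0.148. In 3 of the 4 exEndo 1 libraries, those other than replicate 3, Nodal was higher than in every Epi library. These 4 libraries held 230, 270, 77.6 and 189% of the Epi mean of Nodal, but 0.282, 3.55, 0.0172 and 4.13% of that of EGFP and 0.142 to 1.35% of that of Pou5f1. Other epiblast transcripts reached higher shares, with Utf1 at 3.18 to 13.1%, Tdgf1 at 0.229 to 15.6%, Dnmt3b at 15.0 to 24.2% and Fgf5 at 128, 95.2, 26.8 and 74.5% of the Epi mean. The part of epiblast RNA in the Nodal values was not tested.

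Otx2 was 331, 359, 352 and 268 TPM in Epi, above every exEndo 1 library, with a log2 difference of -2.54 ± 0.76 (limma adjusted p = 0.00895). Without exEndo 1 replicate 3 the difference was -1.39. Lhx1 was called higher in exEndo 1, with a log2 difference of 2.46 ± 0.93 (limma adjusted p = 0.0314), but this call was not stable. The adjusted p was 0.0710, 0.0752 and 0.0623 without exEndo 1 replicates 1, 2 and 4, 0.0513 with a pseudocount of 0.1 and 0.0739 without the filter. Without Epi replicate 1, where Lhx1 was nearly absent, the difference was 1.15, and the adjusted p over 13 alternatives ranged from 7.34e-05 to 0.0752. Gsc (log2 difference 0.57 ± 0.87, limma adjusted p = 0.586) and Eomes (-0.01 ± 0.49, limma adjusted p = 0.984) overlapped between the tissues. Eomes was 15.6, 68.5, 89.3 and 122 TPM in Epi, with Epi replicate 1 the lowest of all 8 libraries. Without that library the Gsc difference was -0.47 and the Eomes difference -0.63.

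In the Nodal pathway, 17 of 18 components were tested between exEndo 1 and Epi, of which 2 were higher and 5 lower, with a list median of -0.15. Tdgf1, the Nodal co-receptor, was 212 to 480 TPM in Epi and 0.695, 47.2, 0.698 and 37.6 TPM in exEndo 1, a fall by 5.08 on the log2 scale (limma adjusted p = 0.000284). Its 2 higher values in exEndo 1 were in replicates 2 and 4, the libraries with the most EGFP (13.7 and 15.9 TPM), and the part of epiblast RNA in them was not tested. Gdf1, a partner ligand of Nodal, was 10.2 to 34.8 TPM in Epi and at most 0.336 TPM in exEndo 1. Furin, a protease that matures the Nodal precursor, was among the higher components (log2 difference 1.93). Of the other anterior visceral endoderm genes, 6 of 7 tested were higher in exEndo 1 and none lower, with a median of 2.97, led by Amot, a motility and Hippo pathway scaffold, at 5.46. Next to it, Sfrp5 rose by 4.05, Sfrp1 by 3.25 and Hesx1 by 2.97. Wnt3, the Wnt ligand that Dkk1 opposes in the streak region, was 1.44 higher in exEndo 1 (limma adjusted p = 0.0249), and the Wnt receptor gene Fzd7 was 1.70 lower on the log2 scale. All 12 visceral endoderm markers were higher in exEndo 1 and 7 of 8 epiblast markers lower.

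The proximal endoderm was compared with the same Epi libraries, which are shared with the comparison above. Of 12046 genes tested, 35.8% were called, 20.3% higher and 15.4% lower in exEndo 2. Of the 10 genes, 9 were tested, and Cer1 was not. Dkk1 and Hhex were higher, by 3.82 ± 0.41 and 2.45 ± 0.46 on the log2 scale (limma adjusted p = 1.2e-06 and 0.000271), and neither overlapped with Epi. Eomes was 2.51 ± 0.49 lower (limma adjusted p = 0.000347), although Epi replicate 1 at 15.6 TPM lay just below exEndo 2 replicate 4 at 15.9 TPM. Otx2, Lefty2, Gsc, Nodal and Lefty1 were also called lower, but passed the filter only through Epi. Lhx1 was not called over all libraries (log2 difference -2.05 ± 0.93, limma adjusted p = 0.0649). It was called without Epi replicate 1 (-3.37, limma adjusted p = 1.47e-05), and its adjusted p over 12 alternatives ranged from 1.47e-05 to 0.23. Seen side by side at E6.5, Dkk1 and Hhex were the 2 genes of the 10 called higher in both endoderm tissues than in Epi.

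After E6.5, most of the 10 genes were no longer found above 1 TPM in most libraries. Otx2 and Lefty2 were above 1 TPM in none of the 32 later libraries, and the highest later value was 0.245 TPM for Otx2 and 0.0147 TPM for Lefty2. Cer1 exceeded 1 TPM in 1 later library, an exMidgut library at 1.20 TPM. Nodal reached at most 4.54 TPM, in an emMidgut library, and was listed at 0 in all 12 E13.5 libraries. Eomes stayed at or below 1.33 TPM and Lhx1 at or below 7.86 TPM. Gsc was at most 6.32 TPM, in an exSI library. Lefty1 was above 1 TPM in 4 of 20 libraries at E9.5 and in 9 of 12 at E13.5, with a highest value of 13.7 TPM in an exSI library. Dkk1 was above 1 TPM in 17 of 20 libraries at E9.5 and in 0 of 12 at E13.5, and Hhex was above 1 TPM in 35 of all 44 libraries, the most of the 10 genes.

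**Figure D4:**
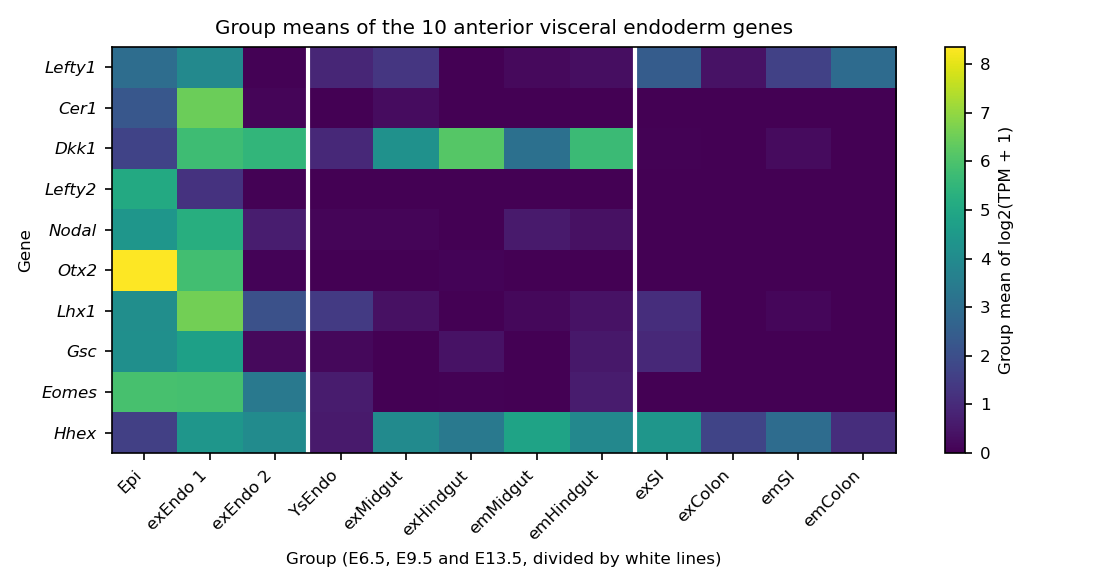
Group means of log2(TPM + 1) for the 10 genes in the 12 groups, ordered by stage and divided by white lines. Most of the signal lies in Epi and exEndo 1, and after E6.5 it remains mainly for Dkk1 and Hhex.

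Between the stages, exGut was compared with exEndo 1, YsEndo with exEndo 2 and emGut with Epi, where stage, pooling and cell sorting changed together and cannot be told apart. From exEndo 1 to exGut, 30.3% of 12931 genes were called, 11.5% as lower in exGut. Of the 10 genes, 9 were tested and 7 were called lower in exGut: Lhx1, Cer1, Eomes, Otx2, Nodal, Gsc and Lefty1. All 7 were carried through the filter mainly by exEndo 1. Dkk1 (log2 difference -0.56 ± 0.60, limma adjusted p = 0.458) and Hhex (-0.69 ± 0.46, limma adjusted p = 0.223) were not called. Hhex was called without exEndo 1 replicate 3 (-1.16, limma adjusted p = 0.0472) and Lefty1 was lost without exEndo 1 replicate 1 (-2.64, limma adjusted p = 0.0510). Over 16 alternatives the adjusted p ranged from 0.0472 to 0.605 for Hhex and from 0.000173 to 0.0510 for Lefty1. Among the Nodal pathway genes, Foxh1 fell by 5.48 and Smad3, a Nodal signal transducer, rose by 2.38. The other components and the counts of their list are not given for this comparison, so these genes say nothing of the pathway as a whole.

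In the yolk sac endoderm, Dkk1 and Hhex were at or below 1.23 TPM. Dkk1 was 0.752, 0.939, 1.23 and 0.947 TPM in YsEndo, 4.52 ± 0.19 lower on the log2 scale than in exEndo 2 (limma adjusted p = 1.66e-09), and Hhex was 0.985, 0.149, 0.839 and 0.315 TPM, 3.43 ± 0.27 lower (limma adjusted p = 5.19e-07). Of 11205 genes tested, 29.6% were called, 21.6% lower, and of the 10 genes 4 were tested and 3 called lower (Dkk1, Hhex and Eomes). These 3 were above 1 TPM in all 4 exEndo 2 libraries and, but for 1 value of Dkk1, in no YsEndo library, so they passed the filter through exEndo 2. Eomes was at most 0.885 TPM in YsEndo. Lhx1 remained detectable at 1.66, 2.39, 2.36 and 0.638 TPM and was not called (log2 difference -0.65 ± 0.29, limma adjusted p = 0.0581). From Epi to emGut, 29.7% of 13053 genes were called, 22.4% higher and 7.31% lower in emGut. Dkk1 and Hhex were higher in emGut, by 2.72 ± 0.77 and 2.77 ± 0.35 (limma adjusted p = 0.00932 and 1.53e-05). The other 7 of the 9 genes tested were called lower, having passed the filter mainly through Epi, and among them Otx2 and Lefty2 were listed at 0 in all 8 emGut libraries.

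The comparison the study turns on is exGut against emGut at E9.5, in which 2.35% of 13473 genes were called. Of the 10 genes, Dkk1 and Hhex were tested and neither was called, and no component of the Nodal pathway (14 tested), other anterior visceral endoderm gene (7 tested) or gene of the Wnt3 and Dkk receptor list (7 tested) was called either. At an unadjusted p under 0.05, Hhex passed, as did 2225 of all genes tested. The log2 difference of Dkk1 was 0.80 ± 0.66 with a 95% interval of -0.586 to 2.18 (limma adjusted p = 0.603), and that of Hhex -0.68 ± 0.31 with an interval of -1.33 to -0.0392 (limma adjusted p = 0.267). The other 8 genes were at or near 0 in most libraries of both origins, and the highest value among them was 5.59 TPM, for Lefty1 in an exMidgut library.

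By region, Dkk1 was 50.6, 6.28, 18.0 and 15.8 TPM in exMidgut replicates 1 to 4 and 17.8, 1.83, 9.73 and 8.21 TPM in emMidgut. It was 109.9, 89.6, 36.9 and 66.3 TPM in exHindgut and 27.1, 72.3, 58.6 and 56.9 TPM in emHindgut. In both regions the origins overlapped, and the log2 differences were 1.13 ± 0.53 in the midgut (limma adjusted p = 0.245, with 4.09% of all genes called) and 0.46 ± 0.53 in the hindgut (limma adjusted p = 0.747, with 2.94% of all genes called). Hhex was 15.1, 16.2, 14.1 and 15.1 TPM in exMidgut and 28.0, 27.0, 22.0 and 34.7 TPM in emMidgut. These groups did not overlap, and the log2 difference was -0.83 ± 0.35 (limma adjusted p = 0.187), which is not past the threshold. In emMidgut, replicates 1 and 3 also held germ cell transcripts, with Pou5f1 at 93.6 and 131 TPM against 0 in replicates 2 and 4. Hhex was 27.0 and 34.7 TPM in the emMidgut libraries without Pou5f1 and 28.0 and 22.0 TPM in those with it, and Nodal was 4.54 TPM in replicate 1 and listed at 0 in the other 3. Hhex was 4.52, 5.65, 22.7 and 11.8 TPM in exHindgut and 12.7, 10.9, 19.5 and 14.1 TPM in emHindgut, with a log2 difference of -0.54 ± 0.35 (limma adjusted p = 0.477).

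**Figure D5:**
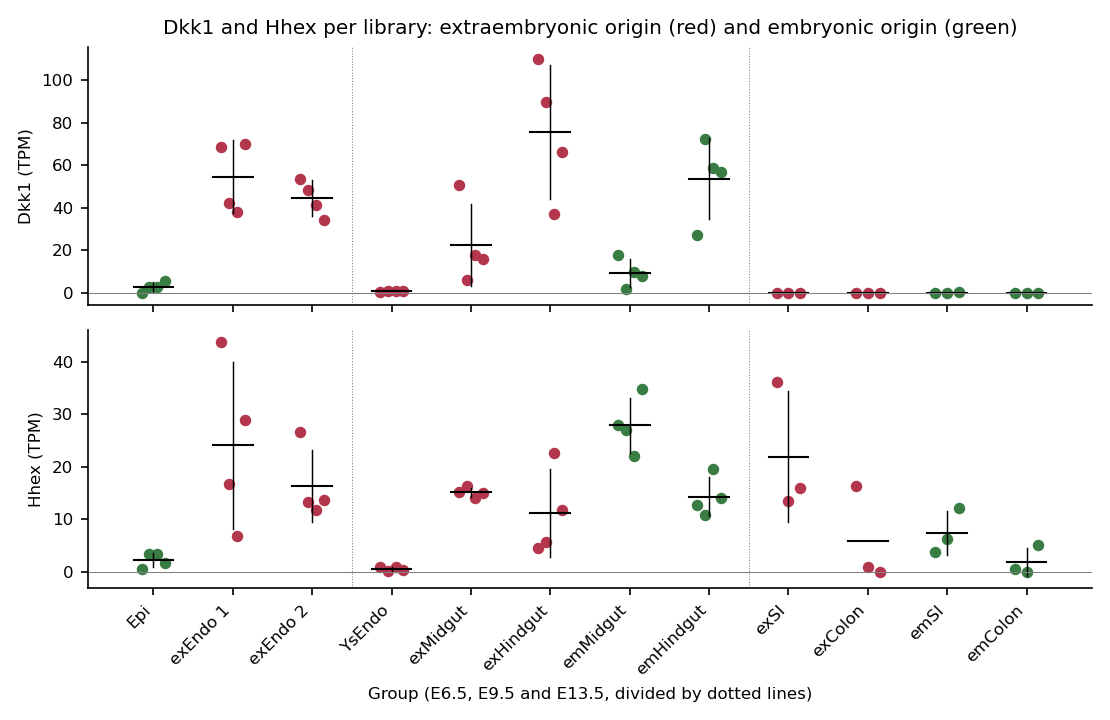
Dkk1 and Hhex in TPM for every library of the 12 groups, with red for extraembryonic and green for embryonic origin, lines for group means and bars for the SD where no library of a group is listed at 0. Dkk1 is higher in hindgut than in midgut in both origins and is near 0 in YsEndo and at E13.5, whereas Hhex is still present in small intestine.

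Dkk1 differed along the gut in both origins. It was 53.7 ± 19.0 TPM in emHindgut and 9.39 ± 6.56 TPM in emMidgut (SD, n = 4), a log2 difference of 2.60 ± 0.53 (limma adjusted p = 0.00107, with 13.2% of all genes called, 4.94% as higher) and no overlap. Over 13 alternatives the adjusted p ranged from 0.000472 to 0.0104. It was 75.7 ± 31.4 TPM in exHindgut and 22.7 ± 19.3 TPM in exMidgut, a log2 difference of 1.93 ± 0.53 (limma adjusted p = 0.0113, with 12.7% of all genes called, 5.12% as higher). Over 12 alternatives the adjusted p ranged from 0.00162 to 0.0493, and the groups overlapped through exMidgut replicate 1 and exHindgut replicate 3. Hhex was lower in hindgut in both origins but not called: the log2 difference was -0.93 ± 0.35 in emGut (limma adjusted p = 0.0593, without overlap) and -0.65 ± 0.35 in exGut (limma adjusted p = 0.200). It was called without emHindgut replicate 3 (-1.08, limma adjusted p = 0.0494) and without exHindgut replicate 3 (-1.05, limma adjusted p = 0.0179). Over the alternatives its adjusted p ranged from 0.0494 to 0.152 in emGut and from 0.0179 to 0.527 in exGut. A difference between the origins along the gut was tested as an interaction, for which 0.0965% of 13473 genes were called and neither of the 2 genes (Dkk1 -0.67 ± 0.75, limma adjusted p = 0.908; Hhex 0.28 ± 0.49, limma adjusted p = 0.941).

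Other markers moved with the region. Wnt3 was 3.62 to 16.3 TPM in emHindgut and 4.88 to 10.6 TPM in exHindgut and listed at 0 in all 8 midgut libraries. Axin2, a transcript induced by Wnt signals, was higher in hindgut by 2.77 ± 0.40 in emGut and 3.43 ± 0.40 in exGut (limma adjusted p = 2.38e-05 and 1.93e-06). The 6 streak and nascent mesoderm markers, which also mark the tail bud, had summed levels of 511.7 to 573.8 TPM in emHindgut and 362.6 to 530.7 TPM in exHindgut against 21.1 to 73.4 TPM in emMidgut and 33.4 to 124.5 TPM in exMidgut. All 4 of them that were tested were called higher in hindgut in both origins. The summed level of 5 notochord and node markers, which include T, was 187.8 to 327.3 TPM in emHindgut and 158.5 to 301.5 TPM in exHindgut against 4.79 to 20.9 TPM in emMidgut and 6.18 to 28.4 TPM in exMidgut. Visceral endoderm markers went the other way, with summed levels of 1501 to 3267 TPM in emMidgut and 7149 to 17142 TPM in exMidgut against 40.7 to 105.5 TPM in emHindgut and 126.3 to 706.4 TPM in exHindgut, and 10 and 11 of the 12 were called lower in hindgut in emGut and exGut. The summed level of 6 liver and pancreas bud markers was 43.6 to 74.5 TPM in emMidgut and 37.1 to 79.9 TPM in exMidgut against 9.55 to 18.5 TPM in emHindgut and 15.0 to 22.8 TPM in exHindgut. The part of these cell types in the values of Dkk1 and Hhex was not tested.

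Among extraembryonic cells of E9.5, exGut was compared with YsEndo, and 42.4% of 12801 genes were called, 32.3% higher and 10.0% lower in exGut. Of the 10 genes, 4 were tested, 2 were called higher and 1 lower, and the 2 higher genes passed the filter mainly through exGut. Dkk1 was 4.22 ± 0.60 higher and Hhex 3.07 ± 0.38 higher in exGut on the log2 scale (limma adjusted p = 3.1e-05 and 7.37e-06), with no overlap between the groups for either gene. Lhx1 was 1.22 ± 0.35 lower in exGut (limma adjusted p = 0.0074), where 1 of 8 libraries was above 1 TPM. It passed the filter mainly through YsEndo, at 0.638 to 2.39 TPM, so its call supports nothing by itself. Lefty1 was 1.30, 0.309, 1.33 and 0.685 TPM in YsEndo and was not called (log2 difference -0.22 ± 0.58, limma adjusted p = 0.755). In exGut it was 5.14, 0, 5.59 and 0 TPM in exMidgut and listed at 0 in all 4 exHindgut libraries.

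At E13.5, 0.625% of 12483 genes were called between extraembryonic and embryonic libraries, and of the 10 genes Lefty1 and Hhex were tested and not called, even at an unadjusted p under 0.05. Hhex was 36.2, 13.45 and 16.0 TPM in exSI and 3.77, 6.29 and 12.1 TPM in emSI. No test was run within the small intestine alone. The summed level of 6 mesenchyme markers was 384.3, 96.7 and 1.75 TPM in these emSI libraries, highest where Hhex was lowest, and at most 1.05 TPM in exSI, and the part of such cells in the Hhex values was not tested. Hhex was 16.4, 0.991 and 0 TPM in exColon and 0.580, 0.0553 and 5.01 TPM in emColon. Over both organs its log2 difference was 1.02 ± 0.70 (limma adjusted p = 0.640). Lefty1 was 1.07, 4.105 and 13.7 TPM in exSI and 0, 10.2 and 1.52 TPM in emSI, and 1.30, 0 and 0 TPM in exColon and 3.19, 12.9 and 6.30 TPM in emColon, a log2 difference of -0.85 ± 0.78 (limma adjusted p = 0.752). The 95% intervals were wide, -0.464 to 2.5 for Hhex and -2.49 to 0.795 for Lefty1 on the log2 scale.

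In order of mean level over the 12 groups, Dkk1 ran from exHindgut (75.7 TPM), exEndo 1 (54.6 ± 17.0), emHindgut (53.7), exEndo 2 (44.5 ± 8.37), exMidgut (22.7) and emMidgut (9.39) to Epi (2.84 ± 2.29), YsEndo (0.967 ± 0.197) and the E13.5 groups. Neighbours in the first 4 places differed by less than their spread. Hhex ran from emMidgut (27.9 ± 5.23 TPM), exEndo 1 (24.1 ± 15.9), exSI (21.9 ± 12.5), exEndo 2 (16.3 ± 6.93), exMidgut (15.1 ± 0.887), emHindgut (14.3 ± 3.70) and exHindgut (11.2 ± 8.32) to emSI (7.38 ± 4.26), Epi (2.27 ± 1.34) and YsEndo (0.572 ± 0.403), with the colon groups at 0 to 16.4 TPM per library. Apart from YsEndo and Epi, these means lay within the spread of their neighbours.

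Genes whose group means followed those of Cer1, Lefty1 and Nodal most closely were found by Pearson correlation over the 12 group means of log2(TPM + 1) among 14679 genes. The points share libraries, and most are near 0. For Cer1 they were Prss1 (r = 0.990), Kcns3 (0.985) and Chrna9 (0.982), which reached at most 6.67, 3.97 and 8.16 TPM in exEndo 1. For Nodal they were Fgf5, an epiblast growth factor (0.983), Irs4 (0.971) and Gm17304 (0.970). Fgf5 was 154.6, 115.1, 32.4 and 90.1 TPM in exEndo 1 and thus was lowest in replicate 3, as the 10 genes were. For Lefty1 the closest were Ccl20 (0.771), Surf2 (0.751) and Cadps2 (0.742).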

How the data were processed

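The 44 libraries were made by a low-input full-length poly(A) protocol that does not mark strand. Per the study's methods, read processing by the authors used cutadapt 4.1 for trimming, STAR 2.7.9a for alignment to mm10 with both reporter sequences added, and StringTie 2.0.6 for quantification of GENCODE genes. The deposited TPM values, made by the authors, sum to 1e+06 per library and were added up here per gene identifier. Their FPKM and coverage columns were not used. Read counts were not used either, and the sampling error of each TPM is therefore not known. Gene type and position were taken from GENCODE vM21, in which 32235 of 32287 identifiers were found (21704 protein-coding).

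Groups followed the labels. The model was fitted to log2(TPM + 1) with limma 3.58.1 under R 4.3.3, using eBayes with a trend, in 14 comparisons. Tested genes were protein-coding, not on the Y chromosome, and above 1 TPM in 4 or more of the libraries compared (3 or more at E13.5). The interaction had no fold threshold. The 12 E6.5 libraries shared 1 fit, as did the 4 gut groups in comparisons by region, and the E13.5 fit had the organ as a covariate. Python 3.11.15 with NumPy 2.4.6 and pandas 2.3.3 was used for all else. Results were recomputed with a pseudocount of 0.1, without the filter, after median-ratio rescaling and with a replicate block. They were also recomputed with a gut region covariate (exGut against emGut), without the organ covariate (E13.5) and without each library in turn. Chosen after seeing the data were leaving out 2 libraries together and a block over the 8 exEndo libraries. Deviations of same-numbered exEndo 1 and exEndo 2 libraries from their group means correlated at 0.201 to 0.417 in all 4 pairs. These numbers were therefore taken to pair the samples, although the labels do not state a pairing. The main fits had no replicate block.

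The 10 genes and the marker lists were chosen with earlier results of these data known. From a list, up to 4 genes past the thresholds with the largest changes were named. Hesx1 and the genes whose values stand beside a result were named after their values were seen.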

Additional observations from a re-analysis of the deposited data

Results flagged for a closer look

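Dixon's test set apart a value of a single library from the other 3 of its group in 6 of 44 sets of 4 libraries. Only sets with a highest value above 1 TPM were used. The rate of 1 in 20 that chance gives holds for normally distributed values, not for sets with most values at 0. The count is therefore not set against chance. Of the 6 values, 5 were single libraries with a low signal in a group otherwise at or near 0. Cer1 was 1.20 TPM in exMidgut replicate 2 and listed at 0 in the other 3. Lhx1 was 1.83 TPM in exMidgut replicate 3 and at most 0.0242 TPM in the others, and 1.68 TPM in emHindgut replicate 2 against at most 0.124 TPM. Nodal was 4.54 TPM in emMidgut replicate 1, a library with 93.6 TPM of Pou5f1, and listed at 0 in the other 3. Gsc was 2.77 TPM in emHindgut replicate 1 against at most 0.200 TPM. The remaining value was Hhex in exEndo 2 replicate 1, at 26.6 TPM against 11.7 to 13.6 TPM in the other 3.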

How the results depend on the processing

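Among values of the 10 genes, 292 kept their direction and side of the threshold under settings other than leaving out single libraries, 2 were newly called and 2 were lost. When single libraries were left out, 645 were kept, 7 were newly called, 4 were lost and 8 changed sign. Interaction calls, 13 in the main comparison (1052 genes at an unadjusted p under 0.05), fell to 0 with a pseudocount of 0.1 (1008 by limma at an unadjusted p under 0.05) and 8 without the filter, and ranged from 3 to 19 when single libraries were left out. Calls between exGut and emGut rose from 316 to 587 with a region covariate, and those between exMidgut and emMidgut fell from 509 to 284 without emMidgut replicates 1 and 3, with fewer samples. Signs turned when single libraries were left out for Hhex between exEndo 1 and exEndo 2 (-0.032 to 0.80), for Gsc (-0.47 to 1.33) and Eomes (-0.63 to 0.33) between exEndo 1 and Epi, and for the interaction of Hhex (-0.12 to 0.58). None of these was called in the full set, and the cause was not tested.

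With a replicate block, calls between exEndo 1 and exEndo 2 were 783, and 797 over their 8 libraries alone, against 763, and the 6 called genes of the 10 remained called. The block gave 8 interaction calls. Elsewhere same-numbered libraries correlated at -0.167 to 0.195, in no set of pairs above 0.1 throughout, so the numbers were not taken to pair them. As a hint from the data, all 3 pairs in each E13.5 organ and 3 of 4 pairs of exMidgut and emMidgut and of exHindgut and emHindgut matched best with their own number. The block moved calls from 78 to 93 at E13.5 and from 316 to 276 between exGut and emGut. The block changed no other call among the 10 genes.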
